A study of Mus musculus with 18 samples.

Results

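The endoplasmic reticulum carries 3 families of sensor that respond when unfolded proteins collect in its lumen, and 8 mouse genes of this system were followed here in the prostate. The genes were chosen by name, as the rows for Xbp1, Ern1, Ern2, Atf6, Atf6b, Eif2ak3, Creb3l1 and Creb3l4 among the 55469 genes measured, and each was found under a single gene identifier in every table. The data were RNA-seq values of total RNA from ventral plus lateral lobes of the prostate of male mice of the strain labelled C56NL/6N, with 18 libraries in 6 groups of 3 mice. WT controls were littermates matched for age. KO mice lost exon 8 of Elac2, the RNase Z gene for tRNA 3′ end processing, in the prostate only, through Cre driven by the probasin (Pb) promoter, which acts in prostate epithelium, so other cells of the lobes keep the gene. A537T mice carried the Ala537Thr variant of Elac2 in both copies and in every tissue. Each genotype was sampled at 10 and at 30 weeks of age. The WT libraries of an age were compared with KO and again with A537T, so the KO and A537T results of an age share their controls.

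IRE1α, the product of Ern1, and PERK, the product of Eif2ak3, are kinases that span the membrane of the endoplasmic reticulum, and ATF6 and ATF6β are transcription factors held in that membrane until they are cut free in the Golgi. Activated IRE1α removes a short piece from the Xbp1 mRNA, and the shifted reading frame then encodes the active XBP1 factor. Secretory epithelium such as that of the prostate uses these factors to keep up its folding and export capacity. ERN2 (IRE1β) is the relative of IRE1α found in mucus-secreting epithelium, and CREB3L1 (OASIS) and CREB3L4 are membrane-held factors related to ATF6, of which CREB3L4 is known as an androgen-regulated factor of the prostate.

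The piece that IRE1α removes is shown because the state of Xbp1 as a factor depends on it, whereas the deposited values are sums over the gene and do not separate the forms with and without it. In the GENCODE vM21 transcript Xbp1-201 it lay in exon 4, within the coding sequence, at chr11:5524279-5524304 (GRCm38, plus strand). It was located by its cut sites, CNGCAGC, placed so that 26 bases fall between the cuts. Capitals mark the removed bases, and the lower-case letters are the mRNA on either side.
Xbp1 mRNA: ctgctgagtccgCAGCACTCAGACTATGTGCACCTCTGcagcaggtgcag
All 3 coding transcripts of Xbp1 in that annotation held the piece 1 time, and its length of 26 bases leaves a remainder of 2 when divided by 3.

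Freed ATF6, and XBP1 with it, act through the ER stress response element, CCAAT, a gap of 9 bases, then CCACG. RefSeq promoter windows on GRCm38.p6, running from 250 bases before to 50 bases after each start site, were available for 5 of the 8 members (Xbp1, Ern1, Atf6b, Eif2ak3 and Creb3l4) and for 23 of 27 genes of a list of known XBP1 and ATF6 targets. Both strands were searched. The element occurred in 39 of 32851 windows (0.119%), in 0 of the 5 members and in 9 of the 23 target genes. The matches of named targets are printed here because these genes are the readout of the factors further down. Capitals mark the fixed letters, and each sequence is written in the direction that begins with CCAAT.
Hspa5, chr2:34772025-34772043, plus-strand gene: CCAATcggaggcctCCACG
Hsp90b1, chr10:86705638-86705656, minus-strand gene: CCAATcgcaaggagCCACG
Hsp90b1, chr10:86705533-86705551: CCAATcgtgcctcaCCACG
Calr, chr8:84847075-84847093, minus-strand gene: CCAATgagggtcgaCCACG
Pdia6, chr12:17266491-17266509, plus-strand gene: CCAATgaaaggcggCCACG
Creld2, chr15:88819520-88819538, plus-strand gene: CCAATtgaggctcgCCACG
The match lay in the direction of the gene in Hspa5, Pdia6 and the upstream site of Hsp90b1, and in the opposite direction in Calr, Creld2 and the downstream site of Hsp90b1. A related element, ATTGG, 1 free base, then CCACG, was in 12 windows (0.0365%), among them Herpud1 and Dnajb11, and the 8 letters TGACGTGG were in 222 windows (0.676%), among them Sec24d and Sec16b. Neither was in a member window, and TGACGTCA, present in 1.79% of all windows, was in no member and no target window.

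Depth ran from 6569642 to 11225281 recovered reads per library with a median of 8586877. Library content differed between groups beyond genotype. Seminal vesicle genes (10 of 11 listed genes measured, led by Svs2) took 6.56% to 10.3% of the counts of the 10-week KO libraries. WT of that age ranged from 0.000813% to 4.55%, with A537T between 0.0397% and 0.200%. At 30 weeks they were at 0.000376% or less in WT and in 1 library of each mutant (5AF of KO, 8AF of A537T), against 6.32% to 9.18% in the other mutant libraries. Skeletal muscle genes (20 of 20, led by Ttn) were highest in WT at 10 weeks, at 3.84% to 12.45%. The range for KO was 0.0585% to 2.02%, that for A537T 1.53% to 4.30%, and no library of 30 weeks exceeded 0.0713%. Prostate luminal genes (10 of 10, led by Sbp) were present in all libraries, at 0.514% to 3.40% in KO at 10 weeks and 3.27% to 10.95% in WT. Plasma and B cell genes (16 of 16, led by Ighm) rose no higher than 0.0143% outside A537T at 30 weeks, where they took 0.0278% to 0.111%. In bulk tissue, fewer cells of a type and less RNA per cell cannot be told apart.

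Elac2 itself, the targeted gene, was at 119, 111 and 115 normalised counts in KO at 10 weeks against 124, 142 and 166 for WT. Its log2 fold change (log2FC, mutant minus WT, here with its SE) was -0.31 ± 0.16, and limma gave an adjusted p of 0.325. At 30 weeks it was at 98.4, 151 and 122 in KO against 150, 153 and 194 in WT, a log2FC of -0.43 ± 0.20 with an adjusted p of 0.478 from limma. KO lay below WT at 10 weeks and overlapped it at 30 weeks, and a gene sum includes transcripts of cells without Cre and transcripts that lack only exon 8.

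Xbp1 was the most abundant of the 8 per length of transcript and the least variable. In CPM, a gene's share of the counts of its library scaled to a fixed total, divided by transcript length in kilobases, its mean over the 18 libraries was 78.1, followed by Ern1 at 23.9, Atf6 at 18.8, Eif2ak3 at 14.2, Atf6b at 12.1, Creb3l4 at 8.42 and Creb3l1 at 1.97. Xbp1 exceeded Ern1 in 18 of 18 libraries, by 1.78 to 7.27 times. The next steps of the order were less firm, with Ern1 above Atf6 in 12 of 18 libraries, Atf6 above Eif2ak3 in 16, Eif2ak3 above Atf6b in 15 and Atf6b above Creb3l4 in 15, so that these neighbours crossed in some libraries. Creb3l4 exceeded Creb3l1 in 17 of 18.

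**Figure D1:**
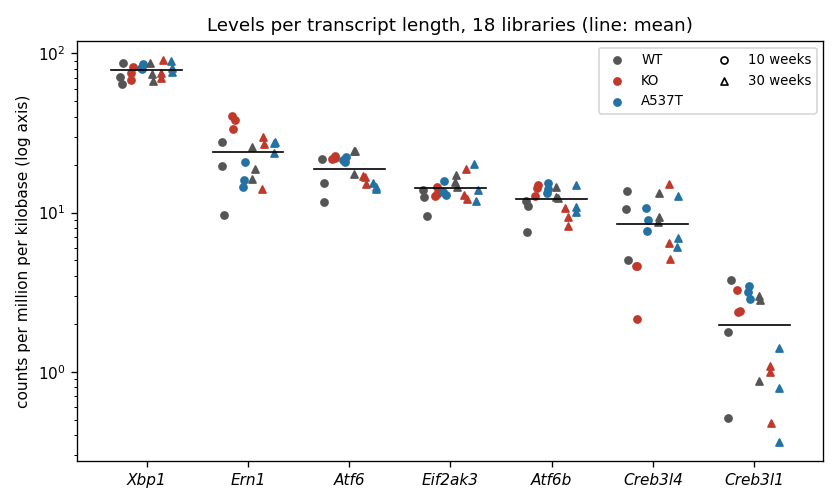
Each point is 1 library, placed by CPM per kilobase of the longest coding transcript on a log axis, coloured by genotype, with circles for 10 weeks and triangles for 30 weeks and a line at the mean of 18 libraries. Xbp1 sits in a narrow band between 64.5 and 90.7, Ern1 runs from 9.71 to 40.2, and Creb3l1 has the widest spread on this axis, from 0.361 to 3.75.

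The members differed in how far they ranged, measured as the ratio of the highest to the lowest library in CPM. The ratio was 1.41 for Xbp1, 2.12 for Atf6, 2.12 for Eif2ak3, 2.03 for Atf6b, 4.14 for Ern1, 7.02 for Creb3l4 and 10.4 for Creb3l1. A single WT library of 10 weeks, 12AF, had the lowest value of Ern1, Atf6, Eif2ak3 and Atf6b, and it also had the highest share of skeletal muscle genes (12.45%). The part of that share in these low values was not tested. Ern2 had 0 reads in 15 libraries and 1 read in each of the other 3, and a count of 0 allows up to 0.267 to 0.457 CPM (3 reads of each library's total, counting error only). It was below the minimum level for the test, which left 7 members tested in every comparison.

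**Figure D2:**
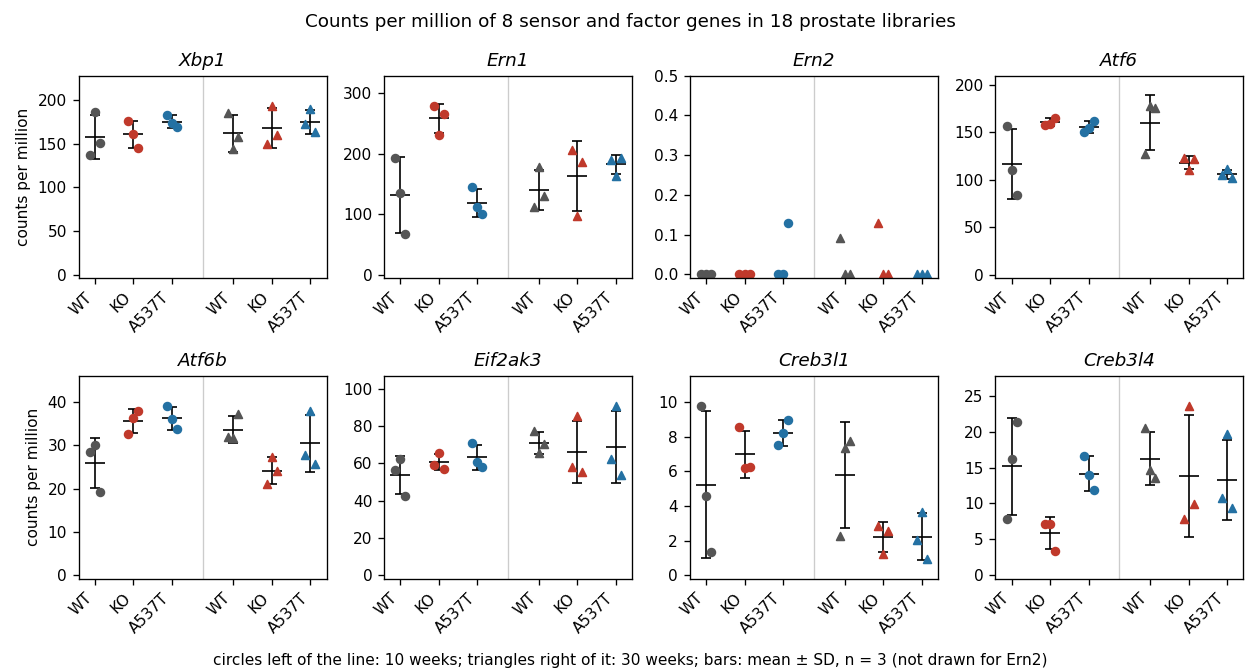
Each panel shows 1 gene, with CPM on the y axis and 1 point per library in the 6 groups (circles, 10 weeks; triangles, 30 weeks), and bars giving mean ± SD of 3 libraries. Ern1 at 10 weeks stands out in KO at 231 to 279 against 67.5 to 192 in WT, whereas the groups of Xbp1 overlap throughout.

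Xbp1, the factor downstream of IRE1α, differed little between genotypes. At 10 weeks it was at 1107, 1592 and 1569 normalised counts in WT and at 1304, 1312 and 1088 in KO, a log2FC of -0.19 with a 95% interval of -0.61 to 0.23. With every library scaled to the same total this value changed sign, to 0.022. In the table with A537T, the WT libraries were at 1157, 1632 and 1615 and the A537T libraries at 1633, 1502 and 1328, a log2FC of 0.03 (-0.39 to 0.45). The groups overlapped in both. In the older mice WT was at 1639, 1340 and 1384, KO at 1419, 1591 and 1512 and A537T at 1509, 1601 and 1520. The log2FC values were 0.06 (-0.21 to 0.32) in KO and 0.09 (-0.16 to 0.35) in A537T, so changes beyond about these limits are outside the intervals, and smaller ones are not.

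Ern1, encoding the sensor IRE1α, was higher in all KO libraries at 10 weeks. WT was at 1483, 1110 and 672 normalised counts and KO at 2077, 1885 and 1993. The groups did not overlap, the KO mean was 1985 ± 95.9 (SD, n = 3) against 1089 ± 406 in WT, and the log2FC was 0.94 ± 0.27 (SE), a fold of 1.92. The adjusted p from limma was 0.183, which missed the threshold of 0.05. The WT spread was wide. Without the WT library 10AF the log2FC was 1.20 with an adjusted p of 0.0245 from limma, and without the WT library 12AF it was 0.63 with an adjusted p of 0.344. With adjustment for the skeletal muscle score, the mean log2 value of the listed muscle genes entered as a term in the fit, it was 0.62.

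Ern1 did not follow this direction in A537T at 10 weeks. The same WT libraries were at 1694, 1245 and 757 in that table and A537T at 1292, 966 and 794, a log2FC of -0.23 ± 0.31 (adjusted p = 0.876 from limma) that turned to 0.038 without 10AF. The 30-week WT libraries were at 991, 1648 and 1137. KO had 2 libraries above WT, at 1964 and 1760, and 1 library below it, 5AF at 807, for a log2FC of 0.20 ± 0.36 that became 0.60 without 5AF and -0.045 without 4AF. A537T was at 1665, 1386 and 1809 with its WT libraries at 1007, 1672 and 1157, a log2FC of 0.37 ± 0.20 (adjusted p = 0.448 from limma).

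Creb3l4 ran opposite to Ern1. At 10 weeks WT was at 63.6, 139 and 222 normalised counts and KO at 53.3, 58.5 and 25.1. The groups did not overlap, and the log2FC was -1.53 ± 0.52, a fold of 0.347 (adjusted p = 0.200 from limma). Without the WT library 10AF it was -2.01 with an adjusted p of 0.0302 from limma, and without 15AF -1.15 and without 12AF -1.12. DESeq2 on recovered reads called this difference, with a log2FC of -1.62 and an adjusted p of 0.0406. With adjustment for the skeletal muscle score the limma value was -0.49. In A537T at 10 weeks Creb3l4 was at 149, 121 and 92.8 against 66.3, 143 and 229, a log2FC of -0.13 ± 0.44, and this sign changed with scaling to the same total (0.013), without 12AF (0.28) and with adjustment for the skeletal muscle score (0.88). At 30 weeks WT was at 182, 137 and 120 with KO at 75.0, 194 and 94.2, and at 181, 136 and 120 with A537T at 94.4, 166 and 87.6. The log2FC values were -0.37 ± 0.36 in KO and -0.37 ± 0.28 in A537T, and in both lines 1 library lay within the range of WT or above it while the others lay below. With adjustment for the seminal vesicle score both values turned positive, to 0.33 and 0.13.

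Ern1 and Creb3l4 both moved with the seminal vesicle share of the libraries. In the 8 libraries with a share of 4.55% or more, Ern1 was at 186 to 279 CPM, and in the 10 libraries with 1.74% or less it was at 67.5 to 178. Creb3l4 was at 3.35 to 10.8 in the 8 and at 11.8 to 23.5 in the 10. Neither gene's ranges overlapped, and the 8 libraries included 1 WT library, 10AF, in which Ern1 had its highest and Creb3l4 its lowest WT value. The mutant libraries of 30 weeks without this RNA, 5AF and 8AF, had the lowest Ern1 and the highest Creb3l4 of their groups. Over the 18 libraries, Pearson's r between Ern1 and Creb3l4 on log2(CPM + 1) was -0.80 and Spearman's rho -0.86. The grouping of libraries by this share was made after the values were seen. How many of all genes also lack overlap in this grouping was not computed, so it gives nothing particular to Ern1 and Creb3l4. With adjustment for the seminal vesicle score, the 30-week values in KO turned from 0.20 to -0.49 for Ern1 and from -0.37 to 0.33 for Creb3l4, and in A537T they went from 0.37 to 0.21 and from -0.37 to 0.13. No such fit was made at 10 weeks, so the part of this share in the 10-week KO differences was not tested.

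**Figure D3:**
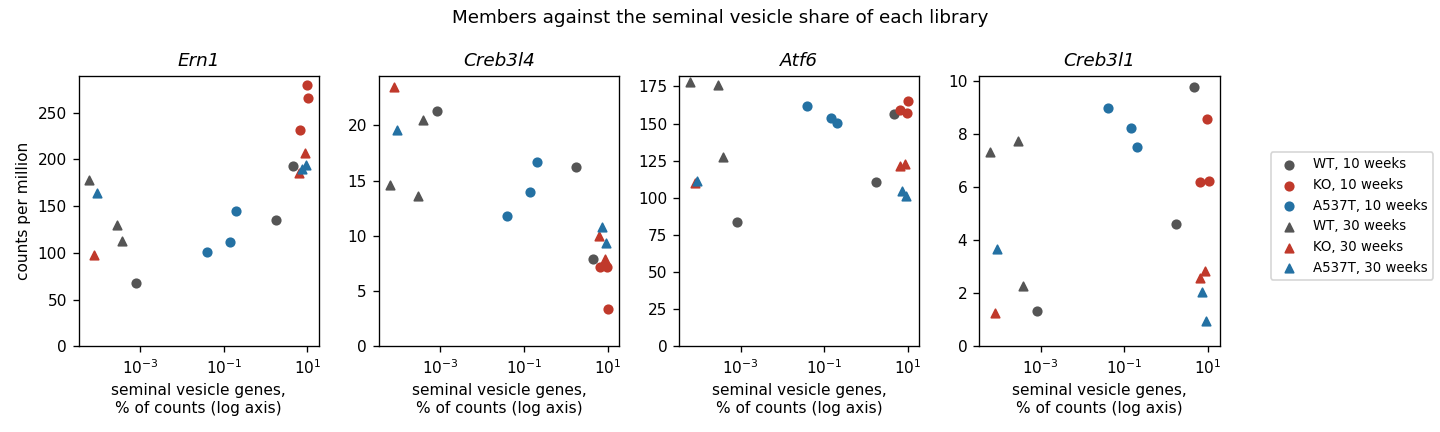
Each point is 1 library, with the share of counts from seminal vesicle genes in percent on a log axis and CPM of the named gene on the y axis. Ern1 is high and Creb3l4 low in the 8 libraries at the right, whereas Atf6 (101 to 165 in the 8, 83.9 to 178 in the 10) and Creb3l1 (0.939 to 9.77 and 1.25 to 8.998) cover the same range on both sides.

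Atf6, encoding the main membrane-held factor of the response, lay higher in the mutants at 10 weeks and lower at 30 weeks. At 10 weeks WT was at 1249, 939 and 868 normalised counts and KO at 1169, 1295 and 1241, a log2FC of 0.29 ± 0.16 (adjusted p = 0.339 from limma). The value in 1 WT library, 10AF, put the groups in overlap, and without it the log2FC was 0.45 with an adjusted p of 0.0382 from limma, whereas without the WT library 12AF it was 0.19 with an adjusted p of 0.661. A537T was at 1343, 1335 and 1272 with WT at 1328, 979 and 909, a log2FC of 0.32 ± 0.17 (adjusted p = 0.749 from limma) that became 0.48 without 10AF, 0.21 without 12AF and 0.12 with adjustment for the skeletal muscle score. At 30 weeks WT was at 1126, 1654 and 1540 and KO at 1168, 906 and 1150, a log2FC of -0.41 ± 0.18 (adjusted p = 0.457 from limma). A537T was at 920, 939 and 946 with WT at 1133, 1663 and 1555. Here the groups did not overlap, and the log2FC was -0.61 ± 0.15, a fold of 0.654 (adjusted p = 0.255 from limma). DESeq2 on recovered reads gave -0.63 with an adjusted p of 0.0187.

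Atf6b, encoding the close relative ATF6β, showed the same order of ages. At 10 weeks WT was at 233, 262 and 204 and KO at 243, 296 and 286, a log2FC of 0.24 ± 0.15 (adjusted p = 0.399 from limma). A537T was at 349, 313 and 265 with WT at 235, 260 and 203, without overlap, and the log2FC was 0.40 ± 0.17 (adjusted p = 0.746 from limma). At 30 weeks WT was at 281, 293 and 326 and KO at 200, 226 and 228, again without overlap, with a log2FC of -0.46 ± 0.12, a fold of 0.729 (adjusted p = 0.386 from limma). A537T was at 244, 321 and 240 with WT at 287, 298 and 333, a log2FC of -0.20 ± 0.15 (adjusted p = 0.563 from limma), and its high library was 8AF. The value was -0.33 without 8AF and 0.052 with adjustment for the seminal vesicle score. Per kilobase, the ratio of Atf6 to Atf6b had medians between 1.33 and 1.79 over the 6 groups.

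Eif2ak3, encoding PERK, overlapped between the groups in all 4 comparisons. At 10 weeks WT was at 458, 538 and 449 and KO at 440, 534 and 430, a log2FC of -0.04 (95% interval -0.38 to 0.29) that became 0.17 with libraries scaled to the same total. A537T was at 633, 527 and 456 with WT at 470, 543 and 455, a log2FC of 0.13 (-0.25 to 0.51). For the 30-week mice, WT was at 701, 626 and 632, and KO at 555, 702 and 522. A537T was at 548, 765 and 499 with WT at 669, 596 and 604. The log2FC values were -0.15 (-0.47 to 0.17) and -0.07 (-0.46 to 0.33), and in both lines the library without seminal vesicle RNA, 5AF or 8AF, was the highest of its group. With adjustment for the seminal vesicle score both values turned positive, to 0.071 and 0.26.

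Creb3l1, encoding OASIS, was the scarcest member with regular reads and the one with the widest spread. At 10 weeks WT was at 80.2, 40.0 and 14.3 normalised counts, KO at 63.6, 50.4 and 46.9, and A537T at 67.0, 71.4 and 70.6, with WT in the table of A537T at 80.8, 39.8 and 13.8. The log2FC values were 0.55 ± 0.58 in KO and 0.94 ± 0.57 in A537T. Without the WT library 12AF they were -0.091 and 0.29, without 10AF 1.11 and 1.52, and with adjustment for the skeletal muscle score 0.00049 and -0.16. At 30 weeks WT was at 20.1, 68.0 and 68.3, KO at 27.1, 10.3 and 24.4 and A537T at 18.1, 30.8 and 8.76. The log2FC values were -1.22 ± 0.58 (adjusted p = 0.487 from limma) and -1.37 ± 0.61 (adjusted p = 0.384 from limma), and the groups overlapped through the low WT library 1AF. Without 1AF the values were -1.79 and -1.94, and they were smaller in size without the lowest library of each mutant, at -0.80 in KO without 5AF and -0.92 in A537T without 9AF. With adjustment for the seminal vesicle score they were -1.87 in KO and -0.51 in A537T. Across libraries Creb3l1 ran with Atf6, with a Pearson's r of 0.88 and a Spearman's rho of 0.79 over 18 libraries on log2(CPM + 1).

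**Figure D4:**
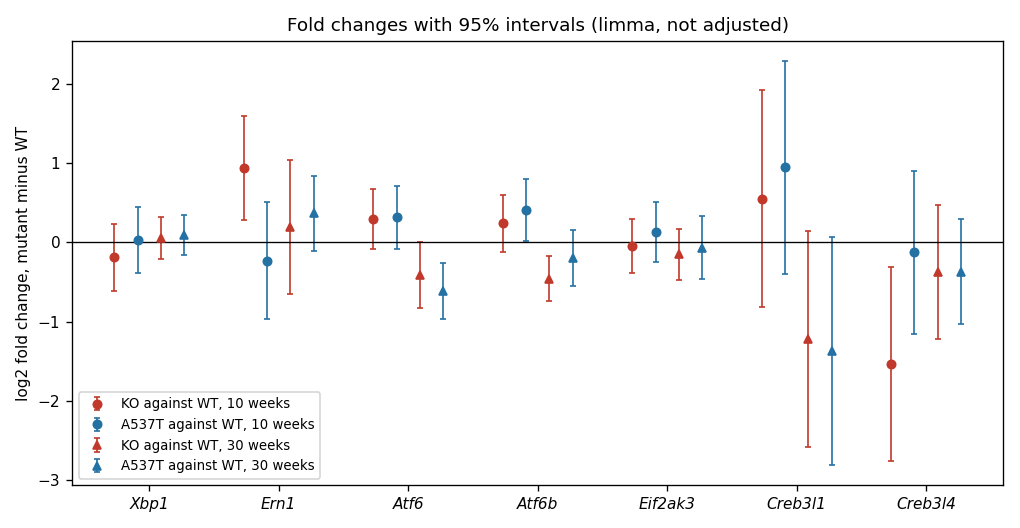
Points give the log2FC of each tested member, mutant minus WT, in the 4 comparisons, and bars its 95% interval from limma without adjustment for the number of genes. Intervals exclude 0 for Ern1 and Creb3l4 in KO at 10 weeks, Atf6b in A537T at 10 weeks and in KO at 30 weeks, and Atf6 in A537T at 30 weeks.

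None of the 7 tested members passed an adjusted p of 0.05 from limma in any comparison, as was so for all genes: 0 of 15089 (0%) in KO and 0 of 15131 (0%) in A537T at 10 weeks, and 0 of 14729 (0%) in KO and 0 of 14789 (0%) in A537T at 30 weeks. edgeR on recovered reads also called 0 genes (0%) in each. At an unadjusted p under 0.05 from limma, 2 members passed in KO at 10 weeks (19.4% of all genes did), 1 in A537T at 10 weeks (6.43%), 1 in KO at 30 weeks (1616 of 14729 genes) and 1 in A537T at 30 weeks (13.6%). Groups without overlap gave 1 member higher in KO at 10 weeks (11.7% of all genes) and 1 lower (14.3%). In A537T at 10 weeks 1 member was higher (5.58%) and 0 were lower (6.34%). In KO at 30 weeks 0 were higher (7.92%) and 1 was lower (8.41%), and in A537T at 30 weeks 0 were higher (9.18%) and 1 was lower (9.40%). DESeq2 called 1 member, Creb3l4, in KO at 10 weeks (4.74% of all genes), 0 in A537T at 10 weeks (0.595%), 0 in KO at 30 weeks (1.93%) and 1, Atf6, in A537T at 30 weeks (3.19%). Without 10AF, limma called Ern1, Atf6 and Creb3l4 in KO at 10 weeks, and 2840 genes (18.8%) in all. With 7 members tested, counts of 0 to 3 give no result about the members beyond these shares.

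The change of direction with age was tested member by member, by permuting genotype within each age over all 400 arrangements, with an exact two-sided p of at least 0.005 and Benjamini-Hochberg adjustment over 14 tests. For Atf6b in KO the log2FC at 30 weeks was lower than at 10 weeks by a difference of -0.70 (exact p = 0.01, adjusted p = 0.07), and for Atf6 in A537T by -0.93 (exact p = 0.01, adjusted p = 0.07). The difference was -0.71 for Atf6 in KO (exact p = 0.05, adjusted p = 0.175) and -0.60 for Atf6b in A537T (exact p = 0.025, adjusted p = 0.117). For Creb3l1 it was -1.76 in KO (exact p = 0.12, adjusted p = 0.28) and -2.31 in A537T (exact p = 0.065, adjusted p = 0.182). None of the 14 passed. With libraries scaled to the same total, which moved the median over all genes by 0.20 in KO and 0.15 in A537T at 10 weeks, Atf6 and Atf6b in KO reached an adjusted p of 0.035 (exact permutation test).

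Most genes downstream of the factors had a log2FC above 0 at 10 weeks and below 0 at 30 weeks. Of 27 listed XBP1 and ATF6 targets, all tested, 24 in KO and 25 in A537T were above 0 at 10 weeks, and 22 in each line were below 0 at 30 weeks. Many overlapped with WT. Counting only genes without overlap, 15 lay above WT without overlap in KO at 10 weeks and 0 below, and in A537T at 10 weeks it was again 15 and 0. In KO at 30 weeks 0 lay above and 15 below, and in A537T at 30 weeks 2 lay above and 11 below. Over all genes the shares above and below were 11.7% and 14.3%, 5.58% and 6.34%, 7.92% and 8.41%, and 9.18% and 9.40% in the same order. The median log2FC values were 0.34, 0.48, -0.35 and -0.28, against medians over all genes of -0.01, 0.01, -0.01 and -0.01. limma called 0 of the targets at an adjusted p of 0.05 in any comparison. At an unadjusted p under 0.05 from limma, 11 in KO and 15 in A537T were higher at 10 weeks, and 0 were lower. At 30 weeks 14 were lower and 0 higher in KO, and 11 were lower and 1 higher in A537T. Of all genes, 19.4%, 6.43%, 1616 of 14729 and 13.6% passed that p in either direction, in the same order. DESeq2 called 5 targets higher, 8 higher, 5 lower and 5 lower. It called 4.74%, 0.595%, 1.93% and 3.19% of all genes in either direction. The WT libraries of 10 weeks also had the highest shares of skeletal muscle genes (3.84% to 12.45%). In KO of that age seminal vesicle genes took 6.56% to 10.3% against 0.000813% to 4.55% in WT. Luminal genes took 0.514% to 3.40% in KO against 3.27% to 10.95% in WT. The mutant libraries of 30 weeks other than 5AF and 8AF had seminal vesicle RNA that WT lacked. The part of these shares in the target counts was not tested, and KO and A537T of an age share their WT libraries. With libraries scaled to the same total the medians were 0.55, 0.62, -0.36 and -0.26, where all genes were at 0.20, 0.15, -0.01 and 0.02.

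**Figure D5:**
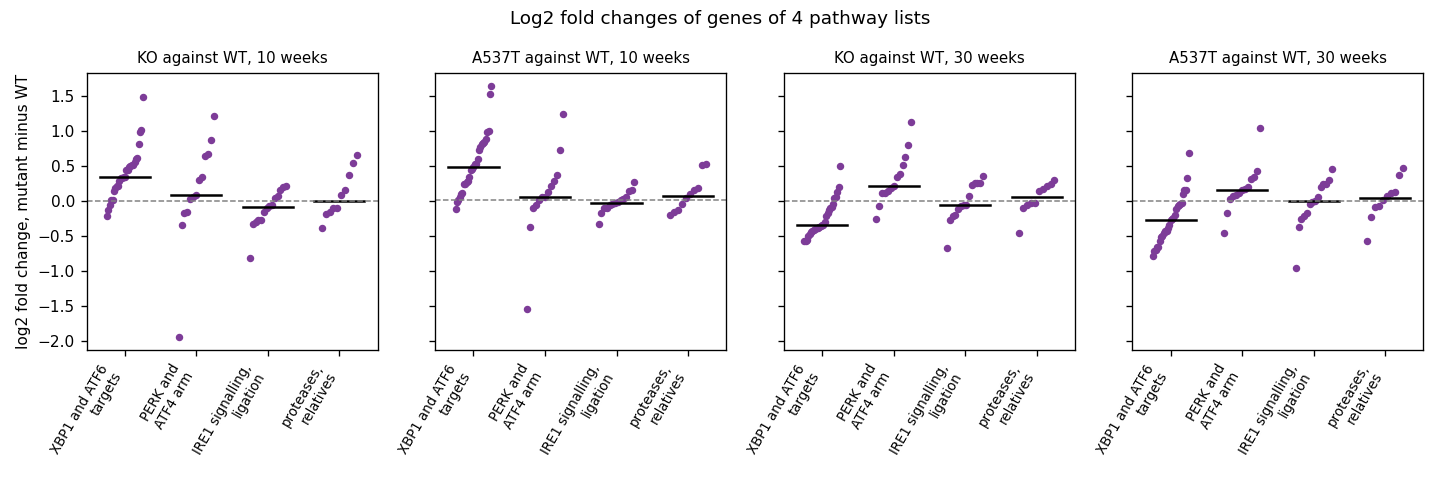
Each point is 1 gene, with its log2FC, mutant minus WT, on the y axis, 1 panel per comparison and 1 column per list. Black lines are list medians and the dashed line the median over all genes. The targets of XBP1 and ATF6 sit above the dashed line at 10 weeks, with medians of 0.34 and 0.48, and below it at 30 weeks, with medians of -0.35 and -0.28.

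Among the abundant targets, Hspa5, the lumenal chaperone BiP, was at 6900 to 7966 normalised counts in WT at 10 weeks and 8804 to 11810 in KO, with log2FC values of 0.51 ± 0.18 in KO, 0.84 ± 0.18 in A537T, -0.31 ± 0.12 in KO at 30 weeks and -0.26 ± 0.16 in A537T at 30 weeks. Hsp90b1, the chaperone GRP94, ran at 0.98, 0.88, -0.41 and -0.57 in the same order, and the calcium-binding chaperone Calr at 0.33, 0.44, -0.36 and -0.47. Creld2, a lumenal protein induced by this response, was at 410 to 781 in WT at 10 weeks and at 1221 to 1813 in KO, with log2FC values of 1.48 ± 0.26 in KO and 1.52 ± 0.23 in A537T (adjusted p = 0.183 and 0.746 from limma). The disulfide isomerase Pdia4 was at 1.01 in KO at 10 weeks, and in A537T Sdf2l1 and Manf, both lumenal proteins, were at 0.81 and 0.82. At 30 weeks the lowest p among targets came from the isomerases Pdia6 in KO (-0.50 ± 0.10, adjusted p = 0.307 from limma) and Pdia3 in A537T (-0.43 ± 0.10, adjusted p = 0.249), followed by Sdf2l1 in KO (-0.56) and the chaperone Hyou1 in A537T (-0.44).

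In the PERK and ATF4 arm, most genes had a log2FC above 0, and few were clear of WT. Of its 13 genes, 2 lay above WT without overlap and 1 below in each 10-week comparison, and 2 above and 0 below in each 30-week comparison, beside the shares over all genes given above for the targets. A log2FC above 0 was seen for 9 genes in each 10-week comparison and for 11 in each 30-week comparison. The median log2FC values were 0.08, 0.06, 0.21 and 0.15, against -0.01, 0.01, -0.01 and -0.01 over all genes. With libraries scaled to the same total the medians were 0.29, 0.20, 0.20 and 0.18, where all genes were at 0.20, 0.15, -0.01 and 0.02. Atf4, the factor whose translation PERK favours, overlapped in all 4 comparisons, between 0.02 and 0.15. Ppp1r15b, a subunit of the phosphatase that reverses PERK signalling, was at 833 to 1068 in KO at 30 weeks against 733 to 769 in WT, with a log2FC of 0.34 ± 0.11. In A537T of that age Ppp1r15b was at 836 to 1072 against 734 to 772, a log2FC of 0.34 ± 0.12. Vldlr, a lipoprotein receptor listed as an ATF4 target, was at 692.6 to 2143 normalised counts in WT at 10 weeks. KO of that age was at 219 to 454 (-1.96 ± 0.45, adjusted p = 0.183 from limma). A537T of that age was at 276 to 571 against 745 to 2269 (-1.55 ± 0.44, adjusted p = 0.746 from limma). Vldlr was higher in A537T at 30 weeks (183 to 226 against 87.1 to 104, log2FC 1.04 ± 0.15, adjusted p = 0.153 from limma). The WT libraries of 10 weeks also had the highest shares of skeletal muscle genes (3.84% to 12.45%), and the part of that share in the Vldlr values was not tested.

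Genes of IRE1 signalling and Xbp1 mRNA ligation stayed near the background, with medians of -0.09, -0.03, -0.07 and -0.01 over 14 genes. Scaled to the same total, the 10-week medians turned to 0.12 and 0.11, below those of all genes at 0.20 and 0.15. Rtcb, the RNA ligase that joins the cut Xbp1 mRNA, ran between -0.27 and -0.06 with overlap in all 4, and Tmbim6, an inhibitor of IRE1α, between -0.26 and -0.03 with overlap in all 4. Agr2, a disulfide isomerase that binds IRE1β, was lower without overlap in KO at 10 weeks (-0.82 ± 0.26), in KO at 30 weeks (-0.68 ± 0.16) and in A537T at 30 weeks (-0.96 ± 0.29), with adjusted p of 0.192, 0.376 and 0.291 from limma. Of the proteases and relatives of the membrane factors, 10 of 11 genes were tested, with medians of -0.01, 0.07, 0.06 and 0.03, of which the 10-week medians became 0.20 and 0.21 with libraries scaled to the same total. Mbtps1, the site-1 protease that begins the release of ATF6, was at 1896, 1958 and 2921 in KO at 30 weeks against 2934 to 3161 in WT (-0.46 ± 0.17, adjusted p = 0.430 from limma). A537T of that age was at 1494, 2105 and 3001 against 3032 to 3256 (-0.58 ± 0.23, adjusted p = 0.355 from limma). The mutant libraries of 30 weeks other than 5AF and 8AF had seminal vesicle RNA that WT lacked, and the KO libraries of 10 weeks had more of it than WT. The part of seminal vesicle RNA in the Agr2 and Mbtps1 values was not tested. Creb3l2, another relative, was at 1090 to 1122 in KO at 10 weeks against 491 to 892 in WT (0.65 ± 0.23, adjusted p = 0.208 from limma). In A537T of that age Creb3l2 was at 966 to 1109 against 500 to 921 (0.52 ± 0.23, adjusted p = 0.746 from limma). Crebrf, a regulator of this factor family, overlapped in all 4 comparisons.

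The genes most like each of the 6 members with a mean of at least 100 normalised counts across the 18 libraries, among 7662 genes of sufficient level, were found by Pearson's r on log2(CPM + 1). They were Axin2 (0.98), Arhgap8 (0.95) and Gm39041 (0.94) for Ern1, and 9530002B09Rik (0.98), Gdpd1 (0.97) and Slc10a5 (0.96) for Creb3l4. For Atf6 they were Tst (0.97), Itpk1 (0.95) and Gdpd5 (0.95), for Atf6b Pcbp1 (0.92), Tulp3 (0.90) and Prrc1 (0.90), and for Eif2ak3 Snx33 (0.94), Prkcd (0.93) and Ccnd3 (0.93). Xbp1 had Nrip1 (0.91), Gpx8 (0.83) and Entpd6 (0.83). Creb3l1 and Ern2 were below that level and were left out. Within the 9 libraries of each age, the leading pairs were at 0.99 and 0.95 for Ern1 and Axin2, 0.98 and 0.96 for Atf6 and Tst, and 0.88 and 0.97 for Xbp1 and Nrip1 (10 and 30 weeks). These values share libraries, library content and depth with the results above and are given as a description.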

How the data were processed

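Total RNA of 18 prostate libraries was sequenced. Per the study's methods and processing notes, the authors trimmed reads with Trim Galore 0.4.1 and cutadapt 1.18, aligned them with STAR 2.7.3a to GRCm38.p6, quantified with Salmon and normalised with DESeq2 1.26. The deposited values are a signal, gene counts divided by size factors, in 4 tables of 6 libraries, each normalised on its own. Table columns carry library names such as 10AF, and their groups came from a library list supplied with the series. Files of the authors' own comparisons (fold changes and p-values) gave no result, and only their gene means were used, to check which line and age a table holds. At least 99.99% of values were whole multiples of 1 read (tolerance 0.1), and these reads were recovered. WT reads of a gene differ between the tables of an age, by up to 8.03% for Ern1; the cause was not tested.

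Each mutant group was compared with WT of its age by limma 3.58.1 (R 4.3.3) on log2(normalised count + 1), for genes with a mean of at least 10, with Benjamini-Hochberg adjustment and a threshold of 0.05. Fold changes are on that scale and understate changes of low genes. edgeR 4.0.16 and DESeq2 1.42.0 on recovered reads, another pseudocount, other filters, scalings, marker covariates and left-out libraries were alternatives. The fits were also run on simulated counts with large planted changes and no differences in library content. That run does not measure how the fits perform on these libraries. Levels are CPM of the library's table total. The text names the members, the 3 most abundant genes of each list, the 3 listed genes with the lowest p per comparison, and the 3 most similar genes. Herpud1, Dnajb11, Sec24d and Sec16b were named for their promoter letters. Members and lists were chosen with earlier results of these data known. 55107 of 55469 gene identifiers matched a symbol.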

Additional observations from a re-analysis of the deposited data

How the results depend on the processing

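No paired analysis was possible because the table columns carry no replicate numbers. The number of members called stayed at 0 in all 4 comparisons under another pseudocount, other filters, both rescalings, no mean trend, edgeR and the marker covariates. DESeq2 called 1 member in KO at 10 weeks and 1 in A537T at 30 weeks. Leaving out 1 library at a time gave 0 to 3 members in KO at 10 weeks and 0 to 0 elsewhere. Scaled to the same total, 2 members differed between the ages in KO, against 0 otherwise.

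Signs that changed belonged to fold changes near 0 or with wide errors. Scaled to the same total, log2 fold changes became 0.022 for Xbp1 and 0.17 for Eif2ak3 in KO at 10 weeks and 0.013 for Creb3l4 in A537T at 10 weeks, and the age difference of Xbp1 in A537T became -0.055. Without muscle and seminal vesicle genes in the total, Xbp1 and Eif2ak3 in KO at 10 weeks were at 0.017 and 0.16, and Eif2ak3 in A537T at 30 weeks at 0.039. With the skeletal muscle score as covariate, values at 10 weeks were 0.052 (Xbp1, KO), 0.20 (Eif2ak3, KO), -0.16 (Creb3l1, A537T) and 0.88 (Creb3l4, A537T). With the seminal vesicle score, values at 30 weeks were -0.49, 0.071 and 0.33 for Ern1, Eif2ak3 and Creb3l4 in KO, and 0.052, 0.26 and 0.13 for Atf6b, Eif2ak3 and Creb3l4 in A537T. The cause was not tested.

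With 1 library left out, the ranges of results that changed sign were -0.14 to 0.039 (Eif2ak3) and -0.091 to 1.11 (Creb3l1) in KO at 10 weeks, -0.13 to 0.12 (Xbp1), -0.54 to 0.038 (Ern1) and -0.60 to 0.28 (Creb3l4) in A537T at 10 weeks, -0.00016 to 0.15 (Xbp1) and -0.045 to 0.60 (Ern1) in KO at 30 weeks, and -0.25 to 0.058 (Eif2ak3) in A537T at 30 weeks. Age differences in A537T ranged from -0.024 to 0.22 for Xbp1 and from -0.65 to 0.24 for Creb3l4. The seminal vesicle and muscle shares follow the groups, so covariate fits leave few degrees of freedom. Ern2 and Creb3l1 are limited by depth.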
